A study of Mus musculus with 8 samples.

Results

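The 10 genes described here encode transcription factors and a coactivator through which the liver answers a fast. They were found by symbol among the 27179 genes of the deposited table, as *Creb3l3*, *Cebpa*, *Cebpb*, *Foxo1*, *Foxo3*, *Klf15*, *Nr3c1*, *Hnf4a*, *Tfeb* and *Crtc2*. All 10 had reads, as did 18937 genes in all. Liver RNA was sequenced from 4 wild-type mice and from 4 mice homozygous for *Ppara* V227A, each an adult male of strain C57BL/6NHsd fasted for 6 h. The V227A allele, which puts alanine in place of a valine in the nuclear receptor PPARα, is a germline substitution made by injecting zygotes with an adenine base editor. The line goes back to 1 founder that carried the allele on 1 chromosome and was crossed to the same strain, and crosses between carriers gave the animals used. The study's mice were 12 to 14 weeks old.

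In the fasted liver, glucagon raises cAMP, which activates protein kinase A and lets the coactivator CRTC2 enter the nucleus and join CREB on the promoters of gluconeogenic genes. Falling insulin releases FOXO proteins from phosphorylation by AKT, and glucocorticoids act through the receptor NR3C1 and through factors it induces, such as KLF15. C/EBP proteins and HNF4A keep hepatocyte genes open to these signals, CREB3L3 drives genes of triglyceride handling and ketogenesis, and TFEB drives lysosome and autophagy genes when mTORC1 is low.

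The values below are the authors' mean log2 CPM (CPM is the reads of a gene scaled to library size) over the libraries of both genotypes together. Values per library were not analysed here, so no spread between mice can be given, and wild-type and V227A livers were not compared. All livers came from fasted mice, so no level given here shows a change with fasting. The level of a gene in CPM was computed from that mean and divided by the length of its exons, since only CPM per kilobase can be compared between genes. The mean effective library size behind the values was estimated at 27473997 reads, and the median gene with reads had an estimated 100.1 reads per library. All estimated reads rest on a prior count (added to the reads before the log is taken) assumed to be 2.

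The 10 genes spanned a 203-fold range, from 201 CPM per kilobase for *Cebpa* to 0.992 for *Foxo3*. Their median level was 32.3 CPM per kilobase, against 1.07 for the 17956 genes with reads and an exon length. Of the 10 genes, 9 lay above that median gene and *Foxo3* lay just below it. Against the median of all genes of the table with an exon length 10 lay above, and against that of genes with a log2 CPM of at least 0 the number was 8, with *Tfeb* and *Foxo3* below. Among the genes with reads and an exon length, the median of the 10 genes' percentiles was 89.9, between *Foxo1* at 84.1 and *Klf15* at 95.7. Together the 10 genes took 0.229% of all CPM.

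**Figure D1:**
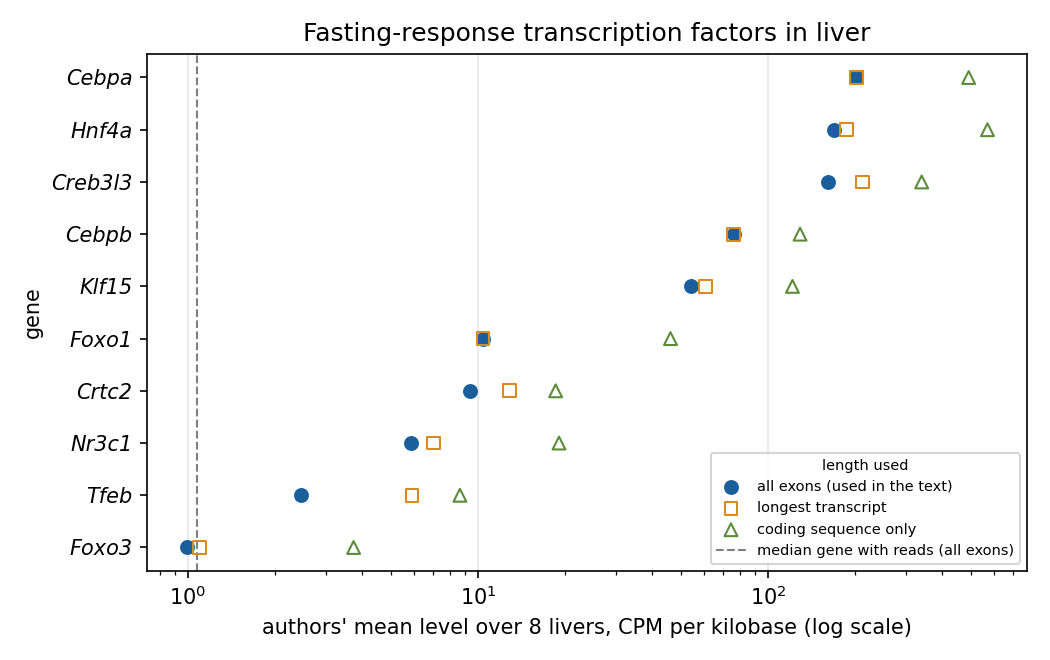
Level of each of the 10 genes in CPM per kilobase (log scale), as the authors' mean over the 8 livers of both genotypes, so there are no error bars. Filled circles divide by all exons, open squares by the longest transcript and open triangles by the coding sequence, and the dashed line is the median gene with reads at 1.07 CPM per kilobase of exon. *Cebpa*, *Hnf4a* and *Creb3l3* lie close together at the top and change places with the length used, while *Foxo3* is lowest under each length.

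In order of level, *Cebpa*, *Hnf4a* and *Creb3l3* came first, at 201, 168 and 162 CPM per kilobase of exon. *Cebpb* (76.2) and *Klf15* (54.2) followed, and then *Foxo1* (10.4), 5.20-fold below *Klf15* with all exons and 2.63-fold with the coding length. *Crtc2* (9.40), *Nr3c1* (5.90), *Tfeb* (2.45) and *Foxo3* (0.992) made up the rest. Without the spread between mice no neighbours in this order were tested. The order within the top 3, of *Foxo1* and *Crtc2*, and of *Crtc2* and *Nr3c1* changed with the length used, so these neighbours cannot be told apart. *Hnf4a* led under the coding length and *Creb3l3* under the longest transcript.

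Among the factors of the cAMP arm, *Crtc2* (Entrez Gene 74343, chr3:90254163-90264125, plus strand) encodes the coactivator that glucagon frees from its cytoplasmic hold. Its mean was 5.27 log2 CPM, an estimated 1058 reads per library. It took 82.7% of the summed CPM per kilobase of the 3 CRTC genes, and *Crtc3* was next at 1.24 CPM per kilobase, 7.57-fold lower. With the coding length the share was 63.0% and the fold 2.81. All 12 genes of glucagon and cAMP signalling had reads, with a median of 4.05 CPM per kilobase. The highest was the glucagon receptor gene *Gcgr* at 119 CPM per kilobase. The lowest was *Sik2*, which encodes a kinase that holds CRTC proteins in the cytoplasm, at 0.490. The related kinase genes *Sik1* and *Sik3* were at 3.78 and 5.46 CPM per kilobase and were named after their values were seen. *Creb1*, the DNA-binding partner of CRTC2, stood at 0.780 CPM per kilobase and was named after its value was seen. Its level was 1.28 with the longest transcript and 10.5 with the coding length, where *Crtc2* was at 18.5. Of 10 general coactivator genes, all had reads, from 1.05 CPM per kilobase for *Ppargc1a*, a coactivator induced by fasting, to 4.52 for *Prmt1*.

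*Creb3l3* (Entrez Gene 208677, chr10:81084324-81098874, minus strand) encodes a factor anchored in the endoplasmic reticulum membrane and known for its expression in liver and intestine. Its mean was 8.93 log2 CPM, an estimated 13393 reads per library. It held 90.1% of the summed CPM per kilobase of the 5 CREB3 family genes. The other 4 ranged from 0.117 to 16.9 CPM per kilobase, with *Creb3*, the founding gene of the family, the highest of them and 9.56-fold below *Creb3l3*. The site-1 and site-2 proteases of the Golgi release the active part of CREB3L3 from the membrane. Their genes differed in level, with *Mbtps1* (site-1) at 5.61 CPM per kilobase and *Mbtps2* (site-2) at 0.364.

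*Nr3c1* (Entrez Gene 14815, chr18:39410545-39519421, minus strand) encodes the glucocorticoid receptor, which binds DNA once its hormone has released it from chaperones. Its mean was 5.50 log2 CPM, an estimated 1245 reads per library. It took 92.6% of the summed CPM per kilobase of 4 steroid receptor genes, and the other 3 ranged from 0.00106 to 0.446, with the mineralocorticoid receptor gene *Nr3c2* the highest. All 7 genes of glucocorticoid supply and receptor chaperones lay above *Nr3c1* in level with all exons. They ran from 15.9 CPM per kilobase for *Hsp90aa1* to 329 for *Hsp90ab1*, both of which encode the chaperone HSP90 that holds the receptor ready for hormone. *Hsd11b1*, whose enzyme regenerates active glucocorticoid inside hepatocytes, was at 92.5 CPM per kilobase and was named after its value was seen.

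*Klf15* (Entrez Gene 66277, chr6:90462576-90475238, plus strand) encodes a zinc finger factor that acts on amino acid breakdown and gluconeogenesis. Its mean was 7.24 log2 CPM, an estimated 4158 reads per library. Of 17 KLF genes, 15 had reads and *Klf14* and *Klf17*, named after their values were seen, had none. *Klf15* was the highest at 54.2 CPM per kilobase, with 38.9% of the family's sum. *Klf9*, another gene known to be induced by glucocorticoids, was next at 47.8, so *Klf15* led it by 1.13-fold. Under the coding length *Klf9* led instead, and *Klf15* stood at 0.387 of its level. The share of *Klf15* in the family's sum was then 19.3%. The other 14 KLF genes with reads, *Klf9* among them, ranged down to 0.00262 CPM per kilobase.

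The C/EBP genes *Cebpa* and *Cebpb* encode basic leucine zipper factors that dimerize with each other. *Cebpa* (Entrez Gene 12606, chr7:35119293-35121928, plus strand), which maintains the differentiated hepatocyte, had a mean of 9.05 log2 CPM and an estimated 14574 reads per library. *Cebpb* (Entrez Gene 12608, chr2:167688915-167690418, plus strand), which is induced by cAMP and in the acute phase response, had a mean of 6.84 log2 CPM and an estimated 3151 reads per library. Each has 1 exon in the annotation. Per kilobase *Cebpa* was 2.64-fold above *Cebpb*, and they took 65.9% and 25.0% of the sum over the 6 C/EBP genes. With all exons the other 4 lay between 2.14 and 11.6 CPM per kilobase, with *Cebpe* the highest. With the longest transcript *Cebpg* was the highest of them, at 11.8 CPM per kilobase. Under the coding length the share of *Cebpb* was 16.4%, and *Cebpg* stood close to it, at 123 CPM per kilobase against 129. *Cebpg* was named after its value was seen. Exons of genes on the opposite strand overlap both. For *Cebpb* 312 bases, or 20.7% of its exon, are shared with the protein-coding gene *Tmem189*, which had a level of 18.7 CPM. For *Cebpa* 51 bases are shared with the antisense gene *Gm45091*. The strand setting of the counting is not given in the sources used here, so reads from these overlaps cannot be told apart.

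*Foxo1* (Entrez Gene 56458, chr3:52268336-52353221, plus strand) and *Foxo3* (Entrez Gene 56484, chr10:42181841-42276755, minus strand) encode forkhead factors that insulin keeps out of the nucleus. *Foxo1* had a mean of 6.50 log2 CPM and *Foxo3* of 2.92, an estimated 2480 and 206 reads per library. Per kilobase *Foxo1* was 10.5-fold above *Foxo3*. Between them lay *Foxo4* at 9.68 CPM per kilobase, a level that *Foxo1* passed by 1.08-fold with all exons and missed with the longest transcript, at 0.977 of it. With the coding length *Foxo1* was 2.07-fold above *Foxo4*. *Foxo1* and *Foxo3* held 49.4% and 4.70% of the sum of the 4 FoxO genes, and the other 2 genes ranged from 0.0173 to 9.68 CPM per kilobase. An antisense gene, *Gm20402*, shares 674 bases with the exons of *Foxo1*, under the same limit on strand. All 8 genes of insulin signalling had reads, from 0.381 CPM per kilobase for *Tbc1d4*, an AKT substrate, to 10.3 for the kinase gene *Akt1*, which phosphorylates FOXO proteins. With the coding length *Akt2* was the highest of the list and *Irs2* the lowest.

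*Hnf4a* (Entrez Gene 15378, chr2:163506808-163572910, plus strand) encodes the nuclear receptor that sustains much of the hepatocyte program. Its mean was 9.67 log2 CPM, the highest of the 10 genes before division by length, with an estimated 22344 reads per library. Its only relative in the family, *Hnf4g*, was at 0.0465 CPM per kilobase, so *Hnf4a* made up 99.97% of the pair's sum. The 10 other liver transcription factor genes set beside it, which cover the HNF1, FOXA and ONECUT families among others, all had reads. They ranged from 2.22 CPM per kilobase for *Prox1*, a homeobox gene of hepatocyte identity, to 36.2 for *Foxa3*, a forkhead gene. All 10 were below *Hnf4a*, also with the longest transcript, where the highest of them was at 36.2 CPM per kilobase, and with the coding length, where it was at 114.

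*Tfeb* (Entrez Gene 21425, chr17:47737030-47792419, plus strand) encodes a factor that mTORC1 keeps in the cytoplasm while nutrients are plentiful. Its mean was 3.80 log2 CPM, an estimated 382 reads per library. With all exons, the MiT/TFE family was the 1 of 8 families whose highest gene was not among the 10 described here. *Tfe3*, a close relative that is regulated by the same kinase, stood at 2.76 CPM per kilobase against 2.45 for *Tfeb*. The exons of *Tfeb* cover 5669 bases but its longest transcript only 2342, and with that length *Tfeb* was 1.47-fold above *Tfe3*. With the coding length it was at 0.582 of the level of *Tfe3*. *Tfeb* held 41.7% of the summed CPM per kilobase of the 4 genes, and the other 3 ranged from 0.203 to 2.76. All 9 genes of mTORC1 and TFEB control had reads. The Rag GTPase genes were at both ends of that list, with *Rraga* at 13.98 CPM per kilobase and *Rragd*, a known TFEB target, at 0.158.

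**Figure D2:**
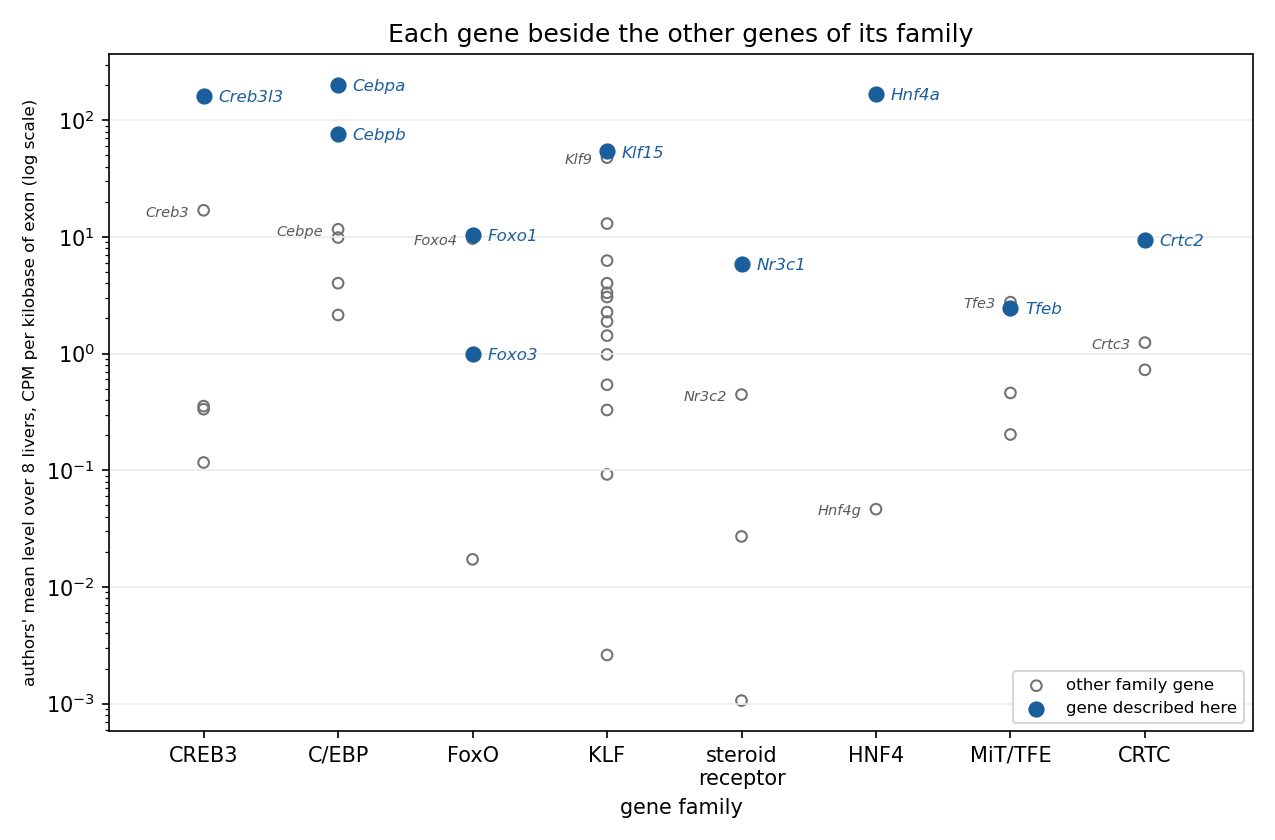
Level in CPM per kilobase of exon (log scale) of every gene with reads in the 8 families, as the authors' mean over the 8 livers of both genotypes, so there are no error bars. Filled points are the 10 genes described here, open points the other genes of each family, with the highest of those named and *Klf14* and *Klf17*, which had no reads, left out. *Klf15* and *Klf9*, *Foxo1* and *Foxo4*, and *Tfeb* and *Tfe3* lie almost level, while *Hnf4a* stands far above *Hnf4g*.

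The 13 fasting target genes are known to be driven by 1 or more of these factors or by PPARα. All of them had reads, with a median of 68.6 CPM per kilobase. Of the 13, 12 lay above the median gene, as did 63 of the 71 genes of all 8 pathway lists together. With all exons *Pck1*, the gluconeogenic enzyme gene activated by CRTC2, FOXO1 and NR3C1, led at 1108 CPM per kilobase. *Pdk4*, a brake on glucose oxidation and a target of FOXO1, was the lowest at 0.674. *Fgf21*, a fasting hormone gene, was at 1.32 CPM per kilobase and was named after its value was seen. The highest and lowest genes of the 8 pathway lists are those with all exons. With the longest transcript they did not change in any list, and with the coding length 5 lists had another gene at 1 end or both.

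The labelled tissue was checked against markers of 13 cell types and tissues. All 6 hepatocyte markers had reads and summed to 98917 CPM, of which *Alb* gave 69579 and was also the highest per kilobase. The summed level was 281 CPM for 5 stellate cell markers, 160 for 5 Kupffer cell markers, 117 for 5 endothelial markers and 35.2 for 5 cholangiocyte markers. Their highest genes per kilobase were *Ecm1*, *Clec4f*, *Clec4g* and *Spp1*, at 56.6, 33.2, 15.4 and 14.5 CPM per kilobase. Blood cell markers summed to 226.8 CPM for red blood cells, 2.09 for B cells, 1.45 for T and NK cells and 0.619 for neutrophils, where *Mpo* had no reads. Their highest genes per kilobase were *Hbb-bs*, *Cd79b*, *Nkg7* and *S100a9*. Of 5 pancreas markers 4 had no reads and *Ctrb1* gave 1.21 CPM. Adipose and skeletal muscle markers summed to 0.388 and 2.32 CPM, with *Adipoq* and *Mylpf* the highest per kilobase. Of 4 intestine markers, *Fabp2* was at 86.1 CPM, *Lgals4* at 63.3 and *Vil1* at 0.274, and *Cdx2* had no reads, for a sum of 149.7. The source of these reads was not tested. In whole liver, fewer cells of a type and less RNA per cell cannot be told apart, and the cells from which the RNA of the 10 genes came were not resolved.

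Promoter windows from RefSeq (GRCm38.p6), which run from 250 bases before to 50 after a gene's start, held 8 of the 10 genes in 12 windows. *Crtc2* and *Nr3c1* have no entry. *Hnf4a* has 2 windows, 40298 bases apart, *Creb3l3* has 2 and *Tfeb* has 3. The windows of *Cebpa*, *Cebpb*, *Foxo1*, *Foxo3* and *Klf15* were rich in CpG, with a ratio of observed to expected CpG from 0.834 in *Foxo3* to 1.18 in *Klf15*, against a median of 0.384 over all 32851 windows. Those of *Hnf4a* were poor in CpG, at 0.183 and 0.163. The 3 windows of *Tfeb* were at 0.271, 0.545 and 0.966, and those of *Creb3l3* were at 0.334 and 0.401.

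On either strand, the core TGACG of the cAMP response element was found in 4 of the 12 windows, of *Cebpb*, *Klf15*, *Foxo3* and *Creb3l3*, and in 20.8% of all windows. The E-box CACGTG, the core bound by TFEB and other helix-loop-helix factors, was found only in that of *Klf15* among the 12, and in 7.15% of all windows. The C/EBP motif TTGCNNAA (10.8% of all windows) was found for *Tfeb* alone, in 1 window. The nuclear receptor core AGGTCA (16.3%) and the glucocorticoid core TGTTCT (19.0%) were found for *Creb3l3* alone, in different windows of that gene. The GC box GGGCGG (35.7%) occurred in 8 of the 12 windows, from 6 genes. The TATA box TATAAA (13.6%) occurred in the windows of *Cebpa* and, after its start, *Cebpb*. The full cAMP element TGACGTCA (1.79%), which contains TGACG, and the FoxO motif TGTTTAC (3.65%) were in none of the 12 windows. A match says only that these letters are present.

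The *Klf15* and *Cebpb* windows are shown because they held the most matches to CACGTG and TGACG, 3 each. As many were found in 0.0883% and 1.03% of all windows. These shares are no test, since the windows were chosen by their counts. CG is part of both motifs. The ratio of observed to expected CpG was 1.18 in *Klf15* and 1.03 in *Cebpb*, against a median of 0.384 over all windows. Both sequences are on the plus strand and end before the gene's start, and capitals mark the motif. In *Klf15*, chr6:90462326-90462425, the E-boxes begin 228 and 172 bases before the start, and another, 3 bases before the start, is not shown and overlaps a TGACG match on the minus strand. In *Cebpb*, chr2:167688715-167688914, the matches begin 180, 53 and 7 bases before the start, the first of them on the minus strand, where it reads CGTCA.
Klf15: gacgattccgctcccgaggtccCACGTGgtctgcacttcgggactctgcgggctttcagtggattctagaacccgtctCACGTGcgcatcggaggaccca
Cebpb: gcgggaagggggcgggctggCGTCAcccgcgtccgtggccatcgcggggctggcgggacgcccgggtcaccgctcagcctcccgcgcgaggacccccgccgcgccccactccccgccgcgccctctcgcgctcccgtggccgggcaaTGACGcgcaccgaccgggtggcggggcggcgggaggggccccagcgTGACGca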

How the data were processed

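RNA was purified from frozen liver with the RNeasy Mini Kit, and stranded poly-A libraries were sequenced as paired-end reads on a NovaSeq X Plus. The submitters' processing notes and the study's methods name Trimmomatic, FastQC, RNA STAR with GRCm38 (mm10), featureCounts and edgeR, which the authors ran on Galaxy. Versions, annotation, strand setting and low-count filter are not given in the sources used here. The deposited table holds, for each gene, the average log2 CPM that the authors fitted over the libraries of both genotypes. It also holds the authors' own comparison of mutant with wild-type (fold change, F statistic, p-value and FDR), which was not used. No column of the table gives values of a single library (0 such columns were left unused), so the planned test of V227A against wild-type was not fitted and no block or left-out mouse could be tried.

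The lowest mean, -3.78 log2 CPM, is shared by 8242 genes and was taken as a gene without reads. The prior count behind the values is not stated and was taken as 2, the default of edgeR, the tool that the authors name. With it the floor gives the mean effective library size. As a check, totals over the 8 libraries were computed for low genes. Of the 2378 totals between 1 and 5 reads, 99.9% were whole to within 0.1, against 23.5% of such totals with a prior count of 0.5. A prior that is a whole multiple of 2 would also give whole totals, so this check does not single out 2. With 2, the lowest total of a gene with reads was 0.984. The prior was subtracted to give reads and CPM. CPM was then divided by the length of the union of exons in GENCODE vM21, known for 94.8% of genes with reads. The annotation behind the counts is not given, so the exons that were counted may differ from these. The estimates of reads and library size were tested on simulated data. Other lengths, other sets of background genes and other prior counts were tried as alternatives. Motifs were sought on both strands of the RefSeq promoter windows. The genes of each family and pathway list are given by count and range. The named genes are the 10 members, the highest other gene of each family and any above its lowest member, and the highest and lowest gene of each pathway list. Genes that overlap a member's exons are named too, and others are marked in the text. The members and the lists were chosen with earlier results of these data known. Python 3.11.15 with pandas 2.3.3, numpy 2.4.6, scipy 1.17.1 and matplotlib 3.10.9 was used.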

Additional observations from a re-analysis of the deposited data

How the results depend on the processing

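The median level of the 10 genes, 32.3 CPM per kilobase with all exons, was 36.9 with the length of the longest transcript. It was 83.8 with the coding length and 102 CPM with no scaling by length. The longest transcript gave a higher level for 8 of the 10 genes, and the coding length and no scaling did so for all 10. The median level was 32.3 with no prior count taken out. The median percentile, 89.9 among genes with reads, was 92.9 among the 25321 genes of the table that have an exon length and 84.3 among genes with a log2 CPM of at least 0. All genes with reads and an exon length have a symbol, so the background of genes with a symbol was the same set and tested nothing. A member was the highest gene in 7 of 8 families with all exons or the longest transcript, and in 6 with the coding length or no scaling. Family shares moved by up to 19.7 percentage points with the length and by at most 0.379 with no prior taken out. With a prior count of 0.5 in place of 2, the estimated reads of all 10 genes were 4-fold lower, as for *Cebpa* (3644 against 14574 per library) and *Foxo3* (51.6 against 206), and their CPM stayed as they were.

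No paired analysis was possible because the table holds no values per library. For the same reason the alternatives for V227A versus wild-type (DESeq2 size factors, no filter, each replicate left out, the replicate block) were not run. The size of each library and the spread between mice are unknown, so the depth gives counting error only.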
